A study of Mus musculus with 27 samples.

Results

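The genes of cholesterol and fatty acid synthesis, with their sterol regulators, were followed through 7 groups of Ba/F3 libraries. Ba/F3 is a mouse pro-B cell line that depends on the cytokine interleukin 3 (IL3). The set holds 29 genes, chosen by name, of 24000 genes in the count tables: 7 of the mevalonate arm, 10 of the sterol arm, 6 regulators and transport proteins, and 6 of fatty acid synthesis. Each of the 29 was found by its symbol, and each passed the filter on low counts, which kept 12073 genes.

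Cells were knocked down with short hairpins against STAT5A (shSTAT5A), STAT5B (shSTAT5B), LSD1 (shLSD1) or HDAC3 (shHDAC3), with 3 libraries each. STAT5A and STAT5B are the transcription factors that IL3 activates, LSD1 (gene Kdm1a) is a histone demethylase, and HDAC3 is a histone deacetylase. Their controls carried a no-target hairpin (shNT, 5 libraries). Hairpins were delivered by lentivirus, and the cells were kept under puromycin for at least 1 week. Wild-type cells, with no hairpin, were taken after IL3 stimulation (WT IL3, 5 libraries) or in deprivation (WT deprived, 5 libraries). Routine medium held 1 ng/mL IL3. All 7 groups then spent 6 h with no IL3, and all but WT deprived received 10 ng/mL IL3 for 30 min before lysis. The knockdowns analysed here were all IL3-stimulated, so they carry no deprived arm. The labels call the libraries biological replicates and do not say how many separate transductions they stand for. PolyA RNA was sequenced, and depth ran between 5.48 and 33.8 M reads counted in genes.

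Cholesterol is built from acetyl-CoA through mevalonate to farnesyl units, which are joined to squalene and closed into the sterol ring. The genes of this route are switched on together by SREBP-2 (gene Srebf2), and those of fatty acid synthesis largely by SREBP-1 (gene Srebf1). Both factors are held in the endoplasmic reticulum by SCAP (gene Scap) and the INSIG proteins (genes Insig1 and Insig2) while sterols are plentiful. Proliferating cells need both products for new membrane.

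In the knockdown libraries the targeted genes were lower than in shNT and the ranges did not overlap: Stat5a had 23.7 to 27.5 CPM in shSTAT5A against 50.5 to 92.0 in shNT, Stat5b 29.3 to 36.0 in shSTAT5B against 95.3 to 134, Kdm1a 55.4 to 103 in shLSD1 against 129 to 156, and Hdac3 44.8 to 83.9 in shHDAC3 against 98.0 to 156. CPM is the count per 1 M reads counted in genes, scaled between libraries by TMM factors. Among pro-B markers, Cd79a and Cd79b passed the filter, Cd79a at 24.2 to 70.8 CPM and Cd79b at 15.4 to 66.5, while the defining markers Pax5, Ebf1, Igll1, Vpreb1, Il7r, Rag1 and Dntt stayed at or under 0.705 CPM in every library. The 3 genes of the IL3 receptor were abundant, Csf2rb reaching 1769 to 7920 CPM. In 5 libraries (shLSD1 replicate 1, shHDAC3 replicates 1 and 2, shNT replicates 1 and 3) between 14.9% and 25.6% of reads fell outside genes or were ambiguous, against 10.1% to 13.2% in the other 22. These 5 stand apart in several of the lipid genes, as described further on. WT deprived replicate 3 also stood apart, with a TMM factor of 0.852. These are bulk libraries, so fewer cells of a type and less RNA per cell cannot be told apart.

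**Figure D1:**
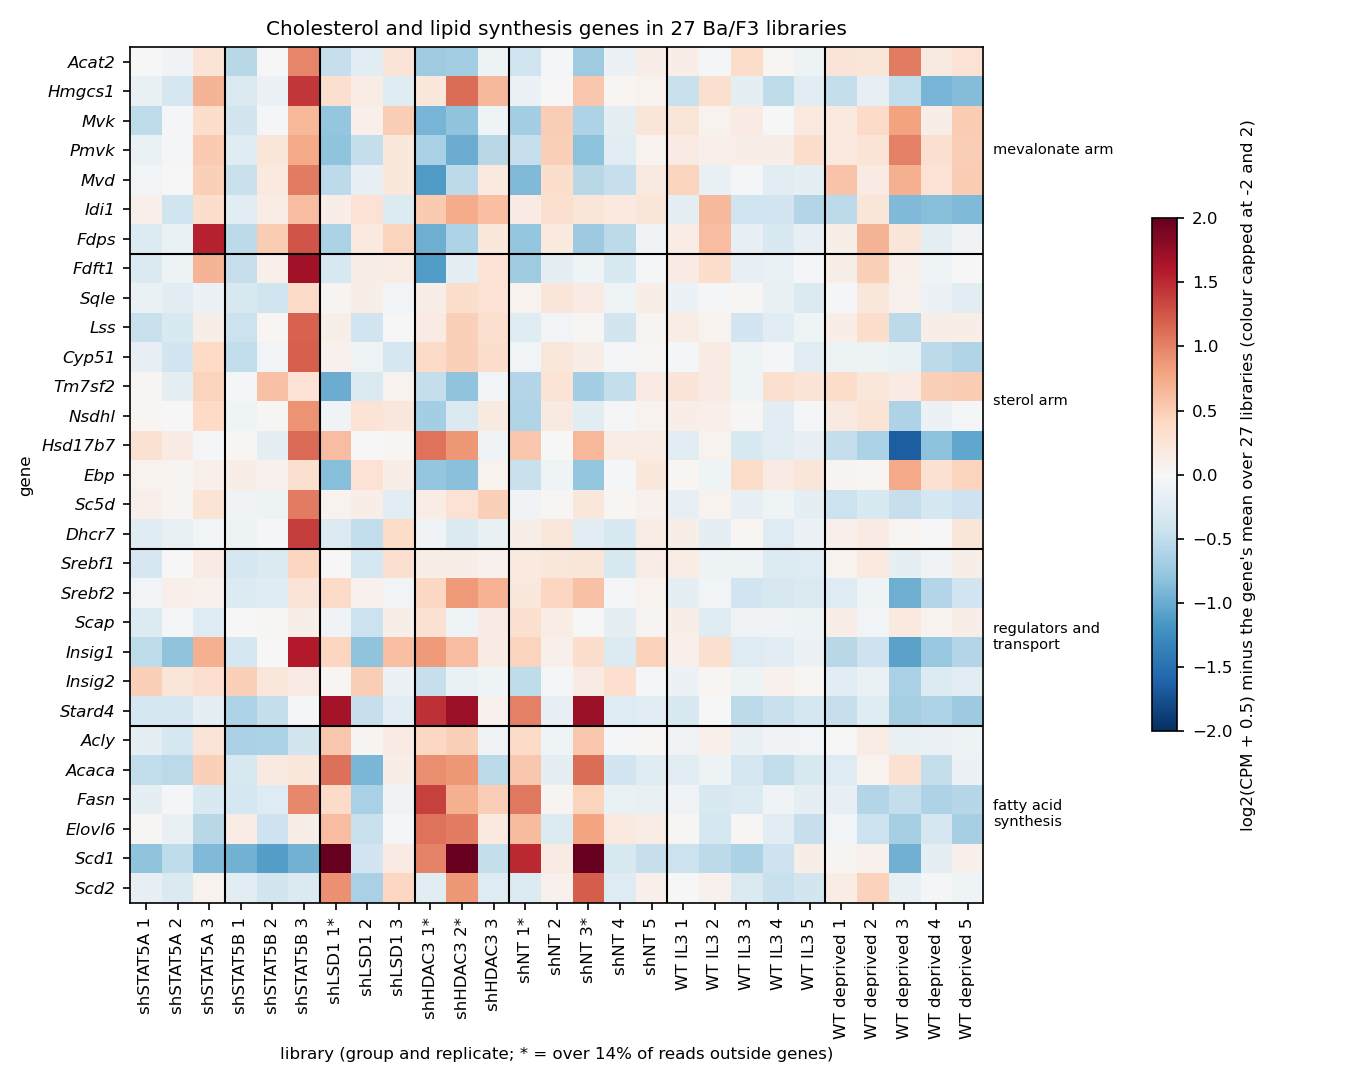
Level of the 29 genes (rows, by role) in the 27 libraries (columns, by group), as log2(CPM + 0.5) minus each gene's mean over all libraries; red is above the mean and blue below, and an asterisk marks the 5 libraries with over 14% of reads outside genes. The sterol arm is deepest red in shSTAT5B replicate 3. Stard4 and the fatty acid genes other than Scd2 are red in the asterisked libraries, and Scd2 is red in only some of them.

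Levels per length placed the desaturase Scd2 at the top. Exon lengths were the union of the annotated exons, so a gene with rarely used exons comes out low. Over the 27 libraries Scd2 averaged 79.0 ± 29.2 CPM per kb (SD), followed by Acly at 38.7 ± 8.33 and Ebp at 33.8 ± 8.56. Scd2 inserts the first double bond into saturated fatty acids, Acly makes cytosolic acetyl-CoA from citrate, and Ebp is a sterol isomerase. At the bottom, the long mRNA of Acaca (acetyl-CoA carboxylase) averaged 1.71 ± 0.741 CPM per kb and Scd1, the other desaturase, 0.225 ± 0.329. Between neighbours in the order of the 29 means, the gap was larger than both SDs at 3 places: between Scd2 and Acly, between Tm7sf2 (3.27 ± 0.896) and Lss (2.00 ± 0.600), and between Acaca and Scd1. The other neighbours did not differ beyond their spread. Scd1 and Scd2 lie in the same stretch of chromosome 19, with another desaturase gene, Scd4, between them (chr19:44394455-44407879, minus strand, and chr19:44293674-44306864, plus strand; GRCm38/mm10).

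**Figure D2:**
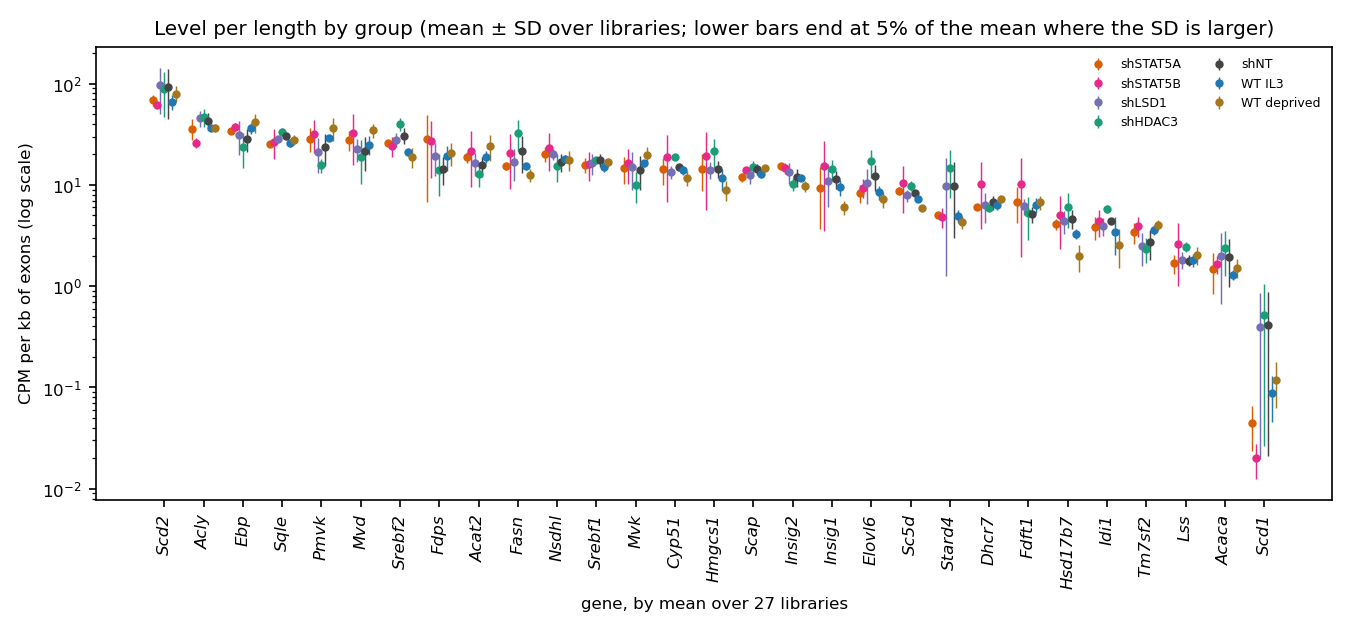
CPM per kb of annotated exon (log axis) for each of the 29 genes, ordered by the mean over 27 libraries; points are group means and bars are SDs over the libraries of a group. Scd2 is first and Scd1 last by a wide margin, and the groups of a gene mostly lie within each other's bars.

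Srebf1 and Srebf2 were expressed in every library. Srebf1 had 72.8, 91.1 and 103 CPM in shSTAT5A, 72.7, 74.9 and 123 in shSTAT5B, 91.8, 71.8 and 115 in shLSD1 and 99.6, 100.2 and 97.3 in shHDAC3. It had 105, 108, 109, 74.1 and 101 CPM in shNT, 102, 85.3, 85.2, 76.2 and 77.1 in WT IL3 and 96.8, 105, 80.98, 87.2 and 99.9 in WT deprived. All 7 groups overlapped with at least one other, and no comparison of Srebf1 had an unadjusted p under 0.05. Srebf2 had 175, 195 and 194 CPM in shSTAT5A, 149.98, 154 and 218 in shSTAT5B, 236, 194 and 175 in shLSD1 and 242, 328 and 293 in shHDAC3. It had 211, 246, 274, 178 and 192 CPM in shNT, 158, 176, 139, 146 and 148 in WT IL3 and 151, 170.4, 92.3, 120.4 and 139.6 in WT deprived. The 3 shHDAC3 libraries included the 2 highest of all 27, and WT deprived replicate 3 was the lowest.

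Insig1, itself a target of the SREBPs and their brake, spanned a wide range. It had 20.7, 16.9 and 48.9 CPM in shSTAT5A, 23.2, 29.6 and 89.7 in shSTAT5B, 40.01, 16.7 and 45.4 in shLSD1 and 53.96, 45.98 and 33.2 in shHDAC3. It had 40.4, 31.9, 38.02, 24.6 and 40.9 CPM in shNT, 31.7, 37.4, 24.8, 25.5 and 27.4 in WT IL3 and 19.97, 22.1, 13.9, 17.3 and 19.6 in WT deprived. The replicates of shSTAT5A, of shSTAT5B and of shLSD1 spread over more than the whole range of the 5 WT IL3 libraries.

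Hmgcs1 makes HMG-CoA, the building block of mevalonate. It had 54.7, 47.7 and 96.6 CPM in shSTAT5A, 49.6, 55.8 and 162 in shSTAT5B, 75.8, 67.2 and 51.2 in shLSD1 and 69.8, 132 and 95.1 in shHDAC3. It had 55.9, 61.02, 87.7, 61.8 and 63.3 CPM in shNT, 44.4, 75.4, 52.8, 42.5 and 51.7 in WT IL3 and 43.1, 53.8, 42.9, 31.4 and 33.1 in WT deprived. Its exons overlap those of the annotated gene Gm48342 over 12.1% of their length, and the labels do not state a stranded kit, so reads there cannot be assigned to either.

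Sqle, the squalene epoxidase that acts after squalene synthase, was among the more even genes. It had 142, 134 and 144 CPM in shSTAT5A, 125, 117 and 203 in shSTAT5B, 161, 168 and 149 in shLSD1 and 168, 199 and 190.3 in shHDAC3. It had 163, 183, 175, 147 and 171 CPM in shNT, 143, 151, 159, 141 and 127 in WT IL3 and 152, 181, 165, 142 and 133 in WT deprived. All 27 libraries lay between 117 and 203 CPM, and shSTAT5B held both the lowest and the highest.

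Fasn, the fatty acid synthase, and the 2 desaturases varied more. Fasn had 167, 184 and 153 CPM in shSTAT5A, 149, 157 and 369 in shSTAT5B, 247, 120.4 and 180.2 in shLSD1 and 490.5, 309.9 and 267 in shHDAC3. It had 393, 197, 258, 172 and 171 CPM in shNT, 179, 153, 156, 179 and 165 in WT IL3 and 169, 126, 136, 124 and 127 in WT deprived. The 4 highest values were in shHDAC3 replicates 1 and 2, shNT replicate 1 and shSTAT5B replicate 3. Scd1 had 0.178, 0.335 and 0.142 CPM in shSTAT5A, 0.117, 0.05504 and 0.1200 in shSTAT5B, 4.57, 0.413 and 0.826 in shLSD1 and 1.86, 5.46 and 0.351 in shHDAC3. It had 2.84, 0.829, 5.703, 0.452 and 0.3600 CPM in shNT, 0.385, 0.326, 0.269, 0.388 and 0.792 in WT IL3 and 0.736, 0.756, 0.108, 0.554 and 0.771 in WT deprived. The 5 libraries rich in reads outside genes held the 5 highest Scd1 values, 1.86 to 5.70 CPM against at most 0.829 elsewhere. Scd2 had 368, 336 and 429 CPM in shSTAT5A, 349.99, 316 and 335 in shSTAT5B, 777, 263 and 546 in shLSD1 and 356, 745 and 344 in shHDAC3. It had 339, 436, 946, 342 and 439 CPM in shNT, 414, 436, 337, 302 and 319 in WT IL3 and 455, 563, 369.8, 399 and 389 in WT deprived.

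IL3 stimulation of deprived wild-type cells asked which genes respond within 30 min. Within the 5 pairs of libraries the lipid genes moved in both directions: 11 of 29 were higher with IL3 in all 5 pairs, 8 were lower in all 5, and 10 were mixed. Of all genes tested 19.9% were higher in all 5 pairs and 23.3% lower. Libraries with the same replicate number deviated together in both conditions, so the number was also fitted as a block. With the block, edgeR's quasi-likelihood test with Benjamini-Hochberg adjustment called 7 of 28 genes higher and 3 lower at an adjusted p under 0.05 (Scd1 missed the filter in this fit of 10 libraries). Of all genes in that fit 13.3% were called higher and 9.09% lower, so the share called lower among the lipid genes was near that of all genes. In the fit of all 27 libraries without the block, edgeR called 0 of 29, against 3.82% of all genes tested. There 1 was higher and 0 were lower at an unadjusted p under 0.05 (8.66% and 5.34% of all genes), and DESeq2 also called 0 (5.25%). The median log2 fold change of the 29 genes was -0.10 against -0.023 for all genes tested, and it was 0.03 without WT deprived replicate 2.

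The regulators and their sterol sensors came first. Insig1 had 31.7, 37.4, 24.8, 25.5 and 27.4 CPM in WT IL3 against 19.97, 22.1, 13.9, 17.3 and 19.6 in WT deprived, higher in each pair and with no overlap between the groups (log2 fold change 0.67 ± 0.08 (SE), adjusted p = 0.00203 with the block). Without the block the log2 fold change was 0.66 with adjusted p = 0.362. Its relative Insig2 had 37.9, 42.3, 38.5, 43.5 and 42.1 CPM in WT IL3 against 35.7, 37.4, 25.98, 34.1 and 35.4 in WT deprived, also without overlap (log2 fold change 0.29 ± 0.08 (SE), adjusted p = 0.0389 with the block; 0.399 without). Srebf2 was higher with IL3 in all 5 pairs, with the values given above, but was not called (adjusted p = 0.0978 with the block). Scap had 109.5, 85.2, 96.4, 95.9 and 93.9 CPM in WT IL3 against 111, 96.96, 116, 106 and 111 in WT deprived, lower in each pair and not called (adjusted p = 0.0726 with the block).

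In the mevalonate arm the called genes split. Hmgcs1 was higher with IL3 (log2 fold change 0.38 ± 0.09 (SE), adjusted p = 0.0233 with the block; 0.578 without). Idi1, which isomerises isopentenyl diphosphate, had 11.5, 20.8, 9.76, 9.86 and 8.56 CPM in WT IL3 against 8.93, 15.5, 6.82, 6.96 and 6.798 in WT deprived (log2 fold change 0.43 ± 0.08 (SE), adjusted p = 0.0131 with the block; 0.471 without). Replicate 2 was the highest for Idi1 in both conditions. Mvd, which makes isopentenyl diphosphate, had 63.3, 42.00, 45.4, 39.6 and 40.9 CPM in WT IL3 against 69.2, 52.1, 76.4, 56.6 and 65.8 in WT deprived (log2 fold change -0.47 ± 0.10 (SE), adjusted p = 0.0164 with the block; 0.466 without). Acat2, the thiolase at the start of the route, had 49.7, 44.3, 58.8, 46.8 and 42.1 CPM in WT IL3 against 54.3, 53.98, 93.3, 51.6 and 55.2 in WT deprived (log2 fold change -0.32 ± 0.09 (SE), adjusted p = 0.0398 with the block; 0.545 without). For both Mvd and Acat2 the fall was steepest in pair 3, whose deprived library stood apart. Hmgcs1 and Idi1 on one side and Mvd and Acat2 on the other thus moved apart within 1 route.

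Among the sterol arm genes Hsd17b7, a sterol ketone reductase, had 16.1, 19.9, 15.2, 15.99 and 16.7 CPM in WT IL3 against 13.4, 11.9, 5.63, 10.5 and 8.900 in WT deprived, with no overlap (log2 fold change 0.77 ± 0.16 (SE), adjusted p = 0.0145 with the block; 0.118 without). Sc5d, a sterol desaturase, had 34.03, 40.4, 33.98, 36.2 and 33.3 CPM in WT IL3 against 28.1, 30.9, 27.7, 29.8 and 28.7 in WT deprived, again with no overlap (log2 fold change 0.30 ± 0.06 (SE), adjusted p = 0.017 with the block; 0.425 without). Groups did not overlap, in the higher direction, for 4 of 29 lipid genes (Insig1, Insig2, Hsd17b7, Sc5d) and for 6.73% of all genes. The other 8 sterol arm genes were not called, with log2 fold changes in the block fit between -0.19 (Dhcr7) and 0.25 (Cyp51).

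Fatty acid genes were called in both directions. Fasn was higher with IL3 (log2 fold change 0.30 ± 0.07 (SE), adjusted p = 0.0256 with the block; 0.66 without), and Scd2 was lower (log2 fold change -0.26 ± 0.07 (SE), adjusted p = 0.0287 with the block; 0.719 without). Fasn overlapped between the groups through WT deprived replicate 1, at 169 CPM. Elovl6, Acaca and Acly were not called.

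The number of calls with the block depended on which pair was left out, among the lipid genes and among all genes. Without pair 1, 13 genes were called, against 27.4% of all genes in that fit, and without pair 3 also 13, against 31%. Without pair 2, 2 were called, against 6.91% of all genes. Without pair 4 or pair 5, only Insig1 was, against 5.85% and 4.21% of all genes. Insig1 was the gene called in each of these 5 fits. Of 35 further genes of the pathway, 33 passed the filter and 0 were called without the block (0 at an unadjusted p under 0.05 in either direction). With the block Msmo1 (log2 fold change 0.38, adjusted p = 0.0281; listed in the files under an older symbol) and Acsl4 (0.31, 0.0254) were higher. Abcg1 (-0.42, 0.0158), Tecr (-0.31, 0.0338), Fads1 (-0.23, 0.0347) and Acacb (-0.30, 0.0430) were lower. Msmo1 is a sterol methyl oxidase and Abcg1 exports cholesterol.

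**Figure D3:**
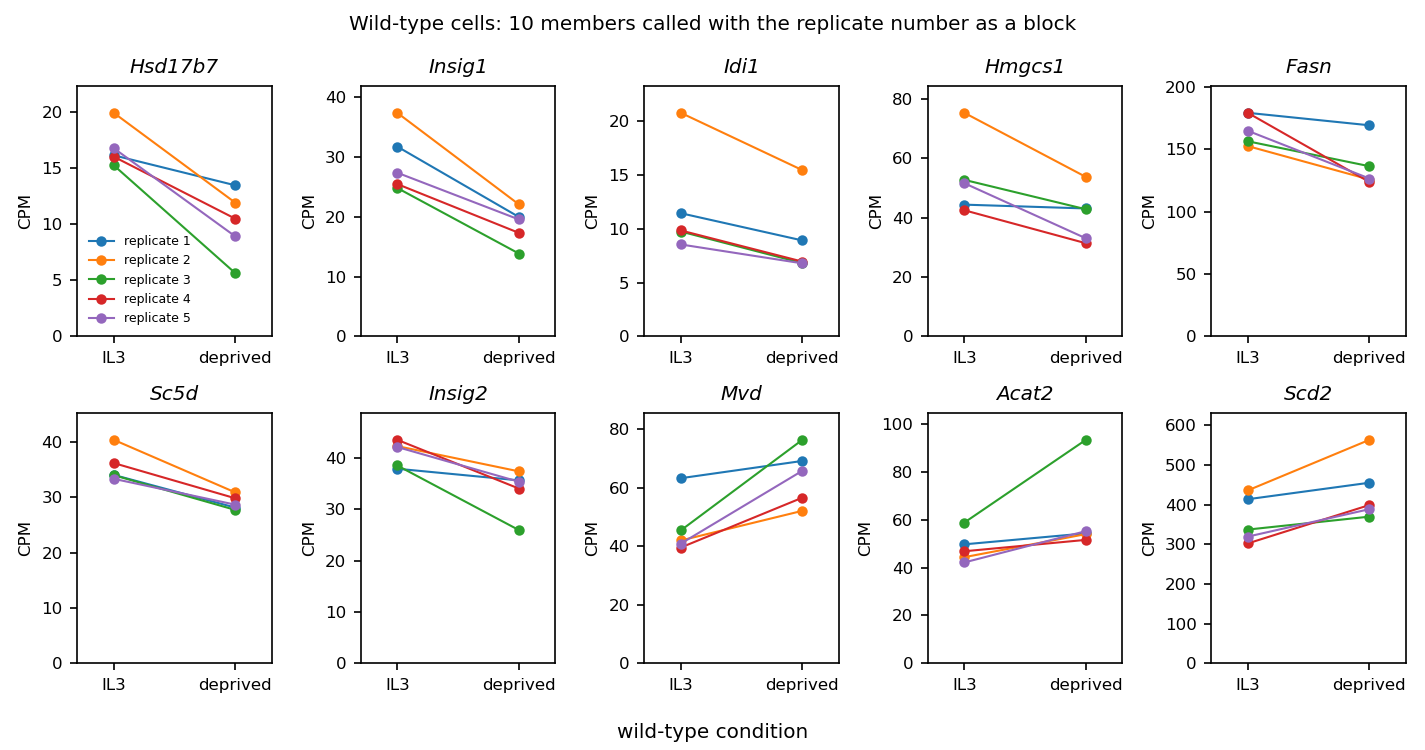
CPM of the 10 genes called in the paired fit, in WT IL3 (left) and WT deprived (right); each line joins the libraries with the same replicate number. For the first 7 genes each line is higher at WT IL3, and for Mvd, Acat2 and Scd2 each line is lower at WT IL3.

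The DNA before the start of 4 of the called genes is shown because the SREBPs bind promoter DNA. Promoter sequence was available in the RefSeq table (GRCm38.p6) for 23 of the 29 genes, in 31 windows of 250 bases before a start. Shown for the higher direction are Insig1 (chr5:28071162-28071361, plus strand), Hsd17b7 (chr1:169969256-169969455, minus strand) and Hmgcs1 (chr13:119690101-119690300, plus strand), and for the lower direction Mvd (chr8:122443473-122443672, minus strand). The 200 bases from -250 to -51 are printed 5′ to 3′ on the gene's strand. Capitals mark matches, on either strand, to the sterol regulatory element TCACNCCAC, the E-box CACGTG and the CCAAT box.
Insig1: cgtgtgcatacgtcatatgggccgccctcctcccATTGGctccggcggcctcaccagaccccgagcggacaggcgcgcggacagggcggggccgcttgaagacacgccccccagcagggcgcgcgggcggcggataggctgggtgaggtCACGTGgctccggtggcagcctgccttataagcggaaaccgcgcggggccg
Hsd17b7: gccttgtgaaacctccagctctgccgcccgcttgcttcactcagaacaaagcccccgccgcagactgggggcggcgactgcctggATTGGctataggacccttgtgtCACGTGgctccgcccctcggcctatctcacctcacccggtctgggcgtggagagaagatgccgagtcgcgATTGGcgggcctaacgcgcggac
Hmgcs1: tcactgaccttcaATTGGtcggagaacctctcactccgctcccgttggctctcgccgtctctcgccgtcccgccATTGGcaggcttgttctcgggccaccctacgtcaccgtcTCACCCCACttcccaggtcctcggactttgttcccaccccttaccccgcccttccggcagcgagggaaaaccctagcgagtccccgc
Mvd: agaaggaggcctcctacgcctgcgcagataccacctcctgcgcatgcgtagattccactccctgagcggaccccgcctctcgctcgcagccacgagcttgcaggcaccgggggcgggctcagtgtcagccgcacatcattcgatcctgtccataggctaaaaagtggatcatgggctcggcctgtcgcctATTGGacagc

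Among these, Hmgcs1 holds the sterol regulatory element, its first base at -137, with CCAAT boxes at -237, -176 and -45. Insig1 has an E-box at -101 and a CCAAT box at -216, and Hsd17b7 an E-box at -143 and CCAAT boxes at -165, -73 and -12. Mvd has CCAAT boxes at -60 and -27. Idi1, not printed, has CCAAT boxes at -45 and -14. Over the 31 windows of the set the element TCACNCCAC was in 1, that of Hmgcs1 (3.23%), against 1.05% of 32851 windows of all genes. CACGTG was in 5 (16.1%) against 6.02%, CCAAT in 19 (61.3%) against 33.8%, and the STAT motif TTCNNNGAA in 1 (Ebp, 3.23%) against 7.02%. A match is a description of the letters only, and the motifs do not overlap one another in the printed windows.

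STAT5A knockdown was compared with the no-target hairpin. No lipid gene was called by edgeR's quasi-likelihood test (0 of 29, against 0.0663% of all genes tested), and DESeq2 called 0 (0.238%). At an unadjusted p under 0.05, 2 were higher and 3 lower, against 3.49% and 4.93% of all genes. Groups did not overlap in the lower direction for 2 of 29 genes, Sqle and Scd1, against 2.28% of all genes. In the higher direction they did not overlap for 0, against 2.53%. The median log2 fold change was -0.16 against -0.0043 for all genes, and 0.011 without shSTAT5A replicate 2. Fdps, the farnesyl diphosphate synthase, had 62.96, 69.9 and 222 CPM in shSTAT5A against 44.6, 87.8, 46.00, 53.4 and 73.1 in shNT (log2 fold change 0.96 ± 0.39 (SE), adjusted p = 0.566). A single library, replicate 3, lay far above the rest, and the other 2 lay inside the range of shNT. Another annotated gene, Gm43738, overlaps 26.7% of the exon length of Fdps. Insig2 had 57.5, 49.1 and 51.96 CPM in shSTAT5A against 28.9, 40.3, 46.00, 52.3 and 40.2 in shNT (log2 fold change 0.35 ± 0.16 (SE), adjusted p = 0.566).

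The fatty acid genes were on the low side in shSTAT5A: all 6 fold changes were negative, as were 50.5% of all genes', with a median of -0.46, and none was called. Over 17 alternatives the highest log2 fold changes were -0.034 for Acly and Fasn, -0.038 for Scd2, -0.10 for Elovl6 and -1.04 for Scd1. For Acaca the highest was 0.19, and 2 of the 17 had the other sign. Of the shNT libraries, replicates 1 and 3 are among the 5 rich in reads outside genes, where all 6 fatty acid genes were called higher. Scd1 was carried by 10 reads in the 3 shSTAT5A libraries against 86 in the 5 shNT libraries, a CPM ratio of 0.129 (95% exact interval 0.0596 to 0.248, counting error only). Without shNT replicates 1 and 3 the ratio was 0.4002 (0.167 to 0.896), and the adjusted p in the fit of all libraries was 0.447. Elovl6, which lengthens palmitate, had 62.7, 55.3 and 41.8 CPM in shSTAT5A against 95.4, 50.8, 107, 70.5 and 68.4 in shNT (log2 fold change -0.56 ± 0.26 (SE), adjusted p = 0.566). The high end of shNT was again replicates 1 and 3. Of the further pathway genes 0 of 33 were called. Markers of myeloid cells moved as well: the 8 listed genes summed to 284 to 687 CPM in shSTAT5A against 111 to 209 in shNT, and 3 of the 6 tested were called higher. Their part in the lipid genes was not tested.

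STAT5B knockdown gave the lowest Acly of the series. Acly had 128, 129 and 154 CPM in shSTAT5B against 262, 189, 291, 194 and 203 in shNT, and the 3 shSTAT5B libraries were the lowest of all 27 (log2 fold change -0.73 ± 0.17 (SE), adjusted p = 0.0624). The adjusted p just misses the threshold. It was 0.00881 with DESeq2, 0.00262 with a term for the class of library and 0.0455 without shNT replicate 2. These were the only 3 of 17 alternatives that called Acly, and its adjusted p ranged from 0.00262 to 0.664 over the 17. Its log2 fold change ranged from -0.84 to -0.33 over them. Acly was itself called higher in the 5 libraries rich in reads outside genes, which include shNT replicates 1 and 3 (262 and 291 CPM). In shNT replicates 2, 4 and 5 it had 189, 194 and 203 CPM. The class term groups shSTAT5B replicate 1, at 13.2% of reads outside genes, with the 5 libraries at 14.9% to 25.6%. Scd1 had 4 reads in the 3 shSTAT5B libraries, 1 or 2 in each, against 86 in shNT, a CPM ratio of 0.0590 (95% exact interval 0.0157 to 0.157). Without shNT replicates 1 and 3 the ratio was 0.184 (0.0456 to 0.548). Its adjusted p was 0.114 in the fit of all libraries, 0.0142 with DESeq2 and 0.00907 with a term for library class. The latter 2 were the only calls of Scd1 among 15 alternatives, in a range of 0.00907 to 0.479. Groups did not overlap in the lower direction for these 2 of 29 genes and for 2.82% of all genes.

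Over the set, edgeR called 0 of 29 genes in shSTAT5B, against 0.340% of all genes tested, and DESeq2 called 2, Acly and Scd1 (1.13% of all genes). At an unadjusted p under 0.05, 5 were higher and 3 lower, against 7.75% and 8.19% of all genes. Directions followed the arms: 6 of 7 mevalonate and 9 of 10 sterol genes had positive fold changes, as did 48.8% of all genes, and 6 of 6 fatty acid genes negative ones. That of Fasn, at -0.08, was positive without shSTAT5B replicate 1, shSTAT5B replicate 2 or shNT replicate 1. That of Acaca, at -0.24, was positive without shNT replicate 3. Over 17 alternatives Fasn had the other sign in 7, Acaca in 4 and Elovl6 in 1. Acly and Scd2 stayed negative in all 17, and Scd1 in all 15 that held it. In the 5 libraries rich in reads outside genes, shNT replicates 1 and 3 among them, mevalonate and fatty acid genes moved the other way. There 6 of 6 fatty acid genes were called higher and 5 of 7 mevalonate genes lower. Of 10 sterol genes 3 were called lower and 1 higher. Fits without those libraries are among the 17 alternatives. Mvd, Pmvk, Fdps, Fdft1, Tm7sf2, Nsdhl and Ebp were positive in all 17. The other mevalonate and sterol genes had the other sign in 1 to 6 of the 17. The part of those libraries in these directions was not tested beyond the fits without them. Fdft1, the squalene synthase, had 18.7, 27.7 and 83.9 CPM in shSTAT5B against 15.7, 22.5, 24.3, 20.9 and 25.6 in shNT (log2 fold change 0.98 ± 0.34 (SE), adjusted p = 0.212). Without shSTAT5B replicate 1 its adjusted p was 0.0388, in a range of 1.41e-05 to 0.95 over 17 alternatives. Exons of Ctsb overlap 18.3% of its exon length. Dhcr7, which completes cholesterol, had 36.3, 38.5 and 103 CPM in shSTAT5B against 42.4, 45.5, 33.1, 31.4 and 42.99 in shNT (log2 fold change 0.59 ± 0.24 (SE), adjusted p = 0.264). In both genes 1 library, replicate 3, was high and the other 2 lay inside or near the range of shNT.

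That library held the high sterol gene levels of the group. In shSTAT5B replicate 3, 12 of the 29 genes had their highest level of all 27 libraries: 8 of 10 sterol arm genes, Hmgcs1, Mvd, Srebf1 and Insig1. It was the highest library for 8.50% of all genes tested. Its levels were 3.61 times the mean of the other 2 shSTAT5B libraries for Fdft1, 3.40 times for Insig1, 3.07 times for Hmgcs1 and 2.41 times for Fasn. None of the 6 fatty acid genes peaked there, and Scd2 was at 1.01 times and Acly at 1.198 times that mean. The median log2 fold change of the set was 0.29 in shSTAT5B over shNT, against -0.012 for all genes, and -0.27 without this library. Without it 3 of 7 mevalonate, 4 of 10 sterol and 0 of 6 fatty acid genes had positive fold changes, and those of Hmgcs1, Cyp51 and Insig1 were negative at -0.32, -0.32 and -0.41. Acly was low in all 3 libraries, this one included. In a fit of the 17 libraries of the common class (few reads outside genes and no shortage of multi-mapped reads), where this is the 1 shSTAT5B library left, 13 of 29 genes were called over shNT, against 9.54% of all genes, with no replicate behind them. Myeloid markers summed to 354 to 532 CPM in shSTAT5B against 111 to 209 in shNT, with 2 of 6 called higher, and their part in these results was not tested. Of the further pathway genes 0 of 33 were called, with 6 higher and 3 lower at an unadjusted p under 0.05.

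**Figure D4:**
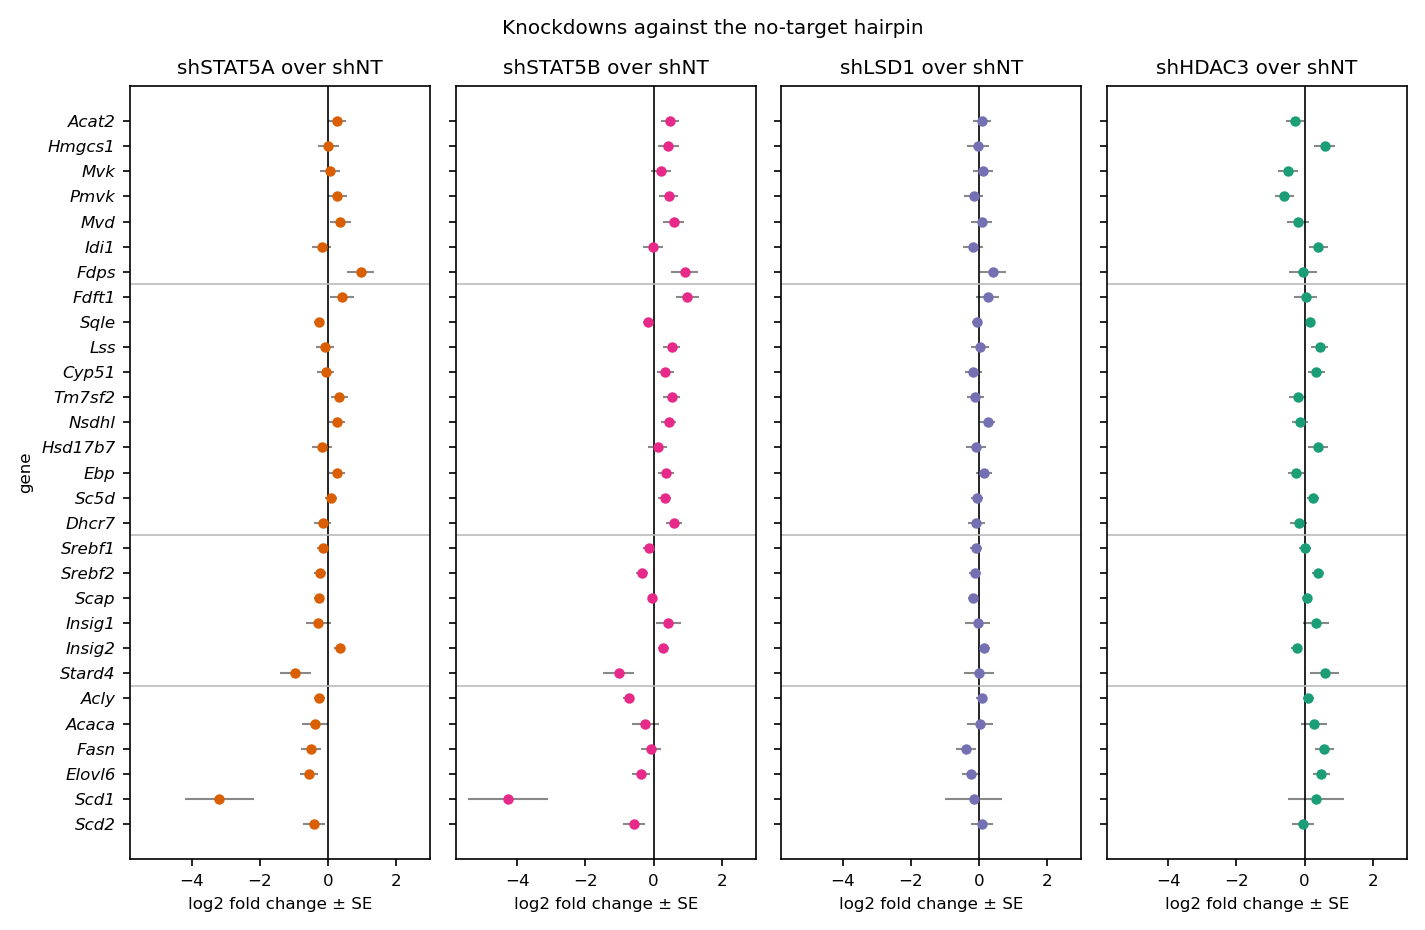
Log2 fold change ± SE of each of the 29 genes in the 4 knockdowns over shNT, from the edgeR fit of all 27 libraries. None was called; Scd1 lies far left in shSTAT5A and shSTAT5B with wide bars, and in shSTAT5B most mevalonate and sterol genes lie right of 0 and all 6 fatty acid genes left of it.

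The STAT5A and STAT5B knockdowns were also compared with each other, which tests whether the libraries of the 2 knockdowns differ and not whether the proteins do. EdgeR called 0 of 29 genes, against 0.0248% of all genes tested, and DESeq2 called 0 (0.0584%). At an unadjusted p under 0.05, 1 was higher in shSTAT5A and 2 lower, against 1.64% and 1.75% of all genes. Acly had 174, 156 and 240.1 CPM in shSTAT5A against 128, 129 and 154 in shSTAT5B, without overlap (log2 fold change 0.47 ± 0.19 (SE), adjusted p = 1). Scd1 was near the limit of counting in both, at 3 to 4 reads per library in shSTAT5A and 1 to 2 in shSTAT5B. Dhcr7 had 32.7, 34.97 and 37.5 CPM in shSTAT5A against 36.3, 38.5 and 103 in shSTAT5B (log2 fold change -0.75 ± 0.27 (SE), adjusted p = 1). Lss, which closes the sterol ring, had 15.1, 16.7 and 22.6 CPM in shSTAT5A against 15.3, 21.4 and 47.7 in shSTAT5B (log2 fold change -0.62 ± 0.29 (SE), adjusted p = 1). In both genes shSTAT5B replicate 3 was the library above the others. The median log2 fold change was -0.18, against -0.0011 for all genes, and 0.19 without that library. In the fit of the 17 libraries of the common class, with that library alone for shSTAT5B, 12 were called, against 10% of all genes.

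LSD1 knockdown was also set against the no-target hairpin. EdgeR called 0 of 29 genes, against 0.166% of all genes tested, 0 had an unadjusted p under 0.05 in either direction (4.39% of all genes higher, 2.32% lower), and DESeq2 called 0 (0.414%). Fold changes lay between -0.38 and 0.40 on the log2 scale, with a median of -0.05 against -0.018 for all genes, and 0.05 without shLSD1 replicate 2. Nsdhl, a sterol decarboxylase, had 48.8, 62.7 and 60.7 CPM in shLSD1 against 33.8, 58.3, 43.97, 50.6 and 54.4 in shNT (log2 fold change 0.25 ± 0.23 (SE), adjusted p = 0.999). Fdps had 48.99, 87.7 and 105 CPM in shLSD1 against 44.6, 87.8, 46.00, 53.4 and 73.1 in shNT (log2 fold change 0.40 ± 0.39 (SE), adjusted p = 0.999). Scap had 96.8, 75.02 and 109 CPM in shLSD1 against 127, 112, 101, 89.1 and 105 in shNT (log2 fold change -0.19 ± 0.13 (SE), adjusted p = 0.946). Fasn, with the values above, had a log2 fold change of -0.38 (adjusted p = 0.987). The groups overlapped for all 29 genes. Of all genes tested, 1.71% did not overlap in the higher direction and 1.09% in the lower. Of the further pathway genes 0 of 33 were called. Myeloid markers summed to 319 to 456 CPM in shLSD1 against 111 to 209 in shNT, and 0 of 6 were called.

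In the HDAC3 knockdown Srebf2 and Fasn were on the high side and 2 mevalonate kinases on the low side, but edgeR called 0 of 29, against 0.0248% of all genes tested. At an unadjusted p under 0.05, 1 was higher and 1 lower (2.48% and 3.21% of all genes), and DESeq2 called 0 (0.0389%). Over the set the median log2 fold change was 0.11, against 0 for all genes. Srebf2 had 242, 328 and 293 CPM in shHDAC3 against 211, 246, 274, 178 and 192 in shNT (log2 fold change 0.39 ± 0.18 (SE), adjusted p = 0.861). Fasn had 490.5, 309.9 and 267 CPM in shHDAC3 against 393, 197, 258, 172 and 171 in shNT (log2 fold change 0.58 ± 0.28 (SE), adjusted p = 0.861). Pmvk, the phosphomevalonate kinase, had 28.04, 22.02 and 29.9 CPM in shHDAC3 against 31.9, 61.5, 24.7, 37.6 and 46.4 in shNT (log2 fold change -0.60 ± 0.28 (SE), adjusted p = 0.861). Mvk, the kinase before it, had 20.6, 22.5 and 37.2 CPM in shHDAC3 against 24.5, 56.2, 25.7, 34.4 and 46.9 in shNT (log2 fold change -0.48 ± 0.30 (SE), adjusted p = 0.87).

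Since shHDAC3 replicates 1 and 2 and shNT replicates 1 and 3 are among the 5 libraries rich in reads outside genes, the remaining libraries are given on their own. There, shHDAC3 replicate 3 had 293 CPM of Srebf2 against 178 to 246 in shNT replicates 2, 4 and 5. It had 95.1 CPM of Hmgcs1 against 61.0 to 63.3, 53.2 of Sc5d against 39.0 to 40.6, and 267 of Fasn against 171 to 197. For Pmvk it had 29.9 CPM against 37.6 to 61.5. For Mvk it had 37.2 CPM, inside the 34.4 to 56.2 of those shNT libraries. With 1 library this has no replicate check. Sc5d was chosen after its values were seen. The groups did not overlap in the higher direction for 3 of 29 genes, against 0.861% of all genes: Idi1, Lss and Cyp51, which were also chosen after their values were seen.

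LSD1 and HDAC3 knockdowns were set against each other. EdgeR called 0 of 29 genes, against 0.820% of all genes tested, and DESeq2 called 0 (2.68%). At an unadjusted p under 0.05, 0 were higher in shLSD1 and 3 lower, against 7.37% and 6.87% of all genes. Fasn had 247, 120.4 and 180.2 CPM in shLSD1 against 490.5, 309.9 and 267 in shHDAC3, without overlap (log2 fold change -0.96 ± 0.32 (SE), adjusted p = 0.157). Srebf2 had 236, 194 and 175 CPM in shLSD1 against 242, 328 and 293 in shHDAC3, also without overlap (log2 fold change -0.51 ± 0.20 (SE), adjusted p = 0.232). Elovl6 had 94.7, 45.3 and 60.4 CPM in shLSD1 against 131, 126 and 70.9 in shHDAC3 (log2 fold change -0.72 ± 0.28 (SE), adjusted p = 0.236). Without shLSD1 replicate 1 Elovl6 was called (log2 fold change -1.03, adjusted p = 0.0498), and its adjusted p ranged from 0.0498 to 0.929 over 15 alternatives. Replicate 1 is the 1 shLSD1 library rich in reads outside genes, while shHDAC3 kept 2 such libraries, replicates 1 and 2, in that fit. Within groups, Elovl6 was higher in libraries of that kind (log2 fold change 0.77 ± 0.15 (SE)). Groups did not overlap in the lower direction for 7 of 29 genes, against 4.82% of all genes, and in the higher direction for 0, against 5.69%.

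On the other side, Mvk had 22.9, 42.3 and 55.6 CPM in shLSD1 against 20.6, 22.5 and 37.2 in shHDAC3 (log2 fold change 0.59 ± 0.33 (SE), adjusted p = 0.431). Nsdhl had 48.8, 62.7 and 60.7 CPM in shLSD1 against 31.9, 41.9 and 58.5 in shHDAC3 (log2 fold change 0.38 ± 0.26 (SE), adjusted p = 0.519). The median log2 fold change was -0.22, against 0.0014 for all genes, 0.06 without shLSD1 replicate 2 and -0.06 without the 5 libraries rich in reads outside genes. Myeloid markers summed to 319 to 456 CPM in shLSD1 against 105 to 109 in shHDAC3, and their part was not tested.

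The no-target hairpin was compared with IL3-stimulated wild-type cells, to see what transduction and selection came with. EdgeR called 0 of 29 genes and 0% of all genes, and DESeq2 called 0 of 29 (0.965%). At an unadjusted p under 0.05, 5 were higher in shNT and 0 lower, against 11.1% and 5.86% of all genes. The regulators and the fatty acid genes were on the high side, with 6 of 6 positive fold changes in each, against 51.3% of all genes. Srebf2 had 211, 246, 274, 178 and 192 CPM in shNT against 158, 176, 139, 146 and 148 in WT IL3, without overlap (log2 fold change 0.52 ± 0.15 (SE), adjusted p = 0.198). Scd1 had 2.84, 0.829, 5.703, 0.452 and 0.3600 CPM in shNT against 0.385, 0.326, 0.269, 0.388 and 0.792 in WT IL3 (log2 fold change 2.15 ± 0.76 (SE), adjusted p = 0.223). Without shNT replicates 1 and 3 Scd1 was at 0.3600 to 0.829 CPM in shNT against 0.269 to 0.792 in WT IL3, and without the 5 libraries rich in reads outside genes its log2 fold change was 0.27 (adjusted p = 0.919). Elovl6 and Stard4 were also at an unadjusted p under 0.05, but without shNT replicates 1 and 3 their ranges were 50.8 to 70.5 and 28.6 to 30.7 CPM in shNT, against 44.5 to 63.0 and 23.9 to 34.3 in WT IL3. Srebf2 without them was 178 to 246 CPM in shNT against 139 to 176. Tm7sf2, a sterol reductase, had 9.05, 16.8, 8.49, 9.78 and 15.5 CPM in shNT against 16.7, 15.6, 13.03, 17.4 and 16.9 in WT IL3 (log2 fold change -0.41 ± 0.21 (SE), adjusted p = 0.32). Ebp had 55.1, 70.9, 43.7, 72.96 and 86.9 CPM in shNT against 77.6, 71.1, 97.8, 84.1 and 89.1 in WT IL3 (log2 fold change -0.35 ± 0.21 (SE), adjusted p = 0.371). The set's median log2 fold change was 0.17, against 0.012 for all genes.

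Within groups, lipid genes also differed between libraries with many and with few reads outside genes. The 5 libraries with over 14% of such reads were compared with the other 22 (a coefficient in the edgeR fit beside the 7 group means, added after the data were seen). Of the 29 genes 8 were called higher and 8 lower. Of all genes tested 25.3% were called higher and 27.7% lower, 53.1% in all, so the set was called about as often as any gene, with its arms apart. All 6 fatty acid genes were higher: Scd1 by a log2 fold change of 3.02 ± 0.41 (SE), Acaca by 1.303 ± 0.20, Elovl6 by 0.77 ± 0.15, Fasn by 0.75 ± 0.19, Scd2 by 0.74 ± 0.22 and Acly by 0.49 ± 0.10. Stard4, a carrier of cholesterol between membranes, had 95.9, 114 and 36.5 CPM in shHDAC3, 110.1, 24.9 and 29.8 in shLSD1 and 69.9, 30.7, 116, 28.6 and 29.4 in shNT. Its range was 69.9 to 116 CPM in the 5 libraries against 20.7 to 36.5 in the others (log2 fold change 1.71 ± 0.14, adjusted p = 7.82e-10). Hsd17b7 was the other gene that was higher, by 0.68 ± 0.21.

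The genes lower in those 5 libraries were 5 of 7 of the mevalonate arm, Mvk, Mvd, Pmvk, Acat2 and Fdps, and 3 of 10 of the sterol arm, Ebp, Tm7sf2 and Nsdhl. Mvk had 20.6 to 25.7 CPM in the 5 libraries against 27.7 to 69.3 in the others, and Ebp 41.5 to 55.1 against 70.9 to 128, both without overlap. Libraries did not overlap for 5 of 29 genes in the higher direction and 4 of 29 in the lower, against 13.4% and 11.9% of all genes. Sqle, Hmgcs1, Idi1 and Srebf2 were not called. Depth was also lower in the 5, at 5.48 to 7.53 M counted reads. These libraries occur in shLSD1, shHDAC3 and shNT and in none of the STAT5 knockdowns or the wild type, so a comparison of a STAT5 knockdown with shNT sets libraries of 1 kind against a mixture. Stard4 had 27.01, 27.1 and 30.5 CPM in shSTAT5A and 22.3, 24.6 and 33.97 in shSTAT5B, against 28.6 to 30.7 in shNT replicates 2, 4 and 5. Both pro-B markers that passed the filter and all 3 IL3 receptor genes were called lower in the 5 as well, and 0 of 6 myeloid markers were called. Cd79a had 24.2 to 27.9 CPM in the 5 libraries against 36.1 to 70.8 in the others, without overlap. The part of these reads and markers in the lipid results was not tested.

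**Figure D5:**
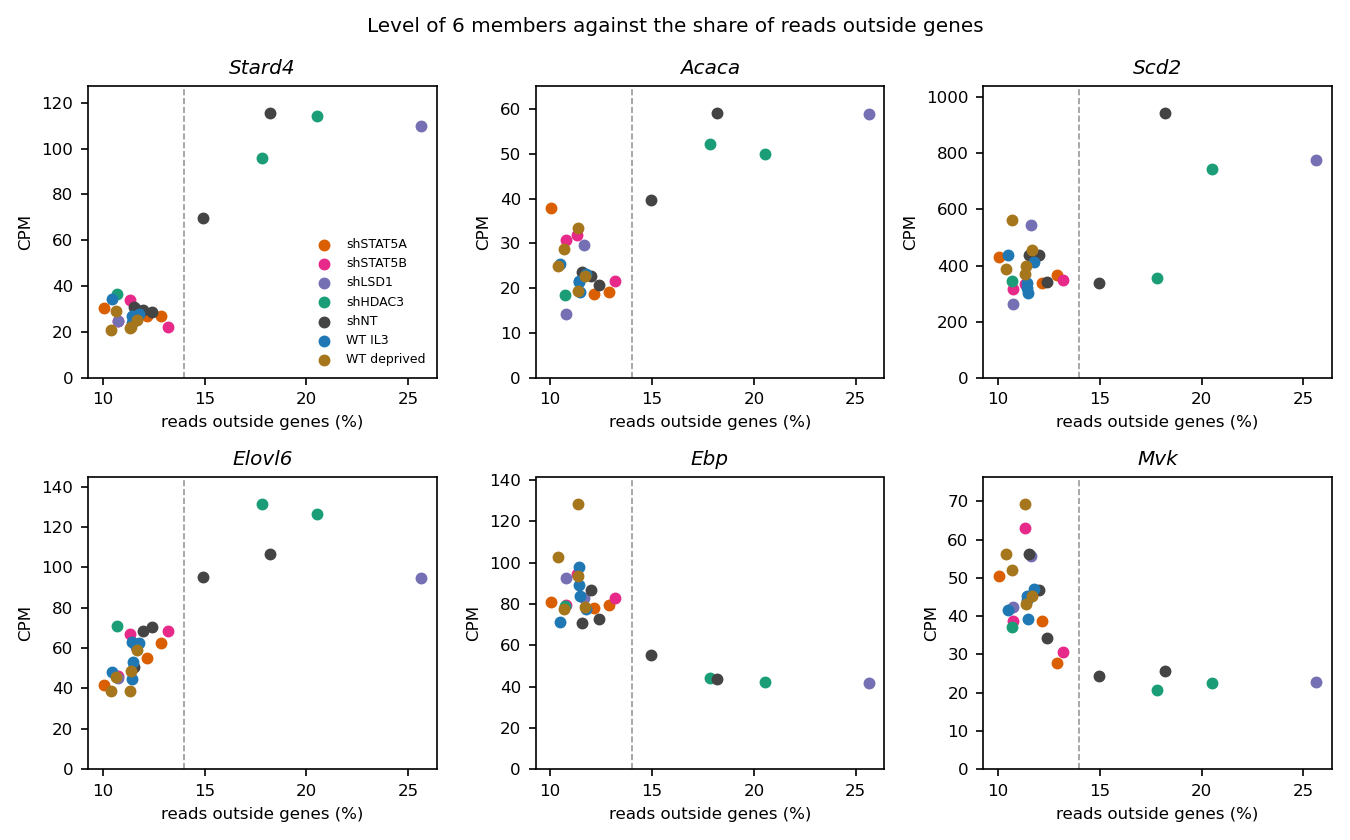
CPM of 6 of the 29 genes (y) in each library against its percent of reads outside genes (x), coloured by group; the dashed line marks 14%. Stard4, Acaca and Elovl6 are higher in each of the 5 libraries right of the line than in any left of it, Ebp and Mvk are lower, and Scd2 is high in 3 of the 5.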

How the data were processed

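PolyA RNA of Ba/F3 cells was measured in 27 libraries of 7 groups, taken from the labels. The authors deposited raw whole-number counts for each gene symbol. Each library's file also has 5 summary lines, used here only to describe the libraries. Per the submitters' processing notes, the mm10 build, TopHat2 2.0.10, Trimmomatic 0.30, DESeq2 1.2 and HTSeq 0.5.4p5 were used. Nothing used here states the counting mode or annotation. The members and gene lists were chosen with earlier results of these data known.

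All libraries entered 1 edgeR 4.0.16 quasi-likelihood fit (R 4.3.3, limma 3.58.1; TMM, filterByExpr, robust), with a mean per group and Benjamini-Hochberg adjustment over 12073 genes. The 8 comparisons share libraries: the 4 knockdowns share shNT. P-values measure the spread between these libraries, whose separate cultures the labels do not describe beyond the word biological. Self-tests used simulated counts. Gene positions and exon lengths came from GENCODE vM21 (GRCm38/mm10), promoters from RefSeq (GRCm38.p6).

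Values per library are given for genes called (in the wild type also with the block), the 2 smallest p in each direction elsewhere, 8 fixed genes, and the highest and lowest level per length. Same-numbered wild-type libraries were paired, because all 5 pairs had correlated deviations (r between 0.375 and 0.716). Replicate pairs of a group differed by more than sampling noise. Library classes were set from reads outside genes (over 13%, 6 libraries) and few multi-mapped reads (4 libraries); the other 17 were the common class. Alternatives were RLE factors, no filter, DESeq2 1.42.0, fits of 2 groups, the block, each library left out, and the classes left out or as a term. The split at 14%, with 5 libraries, and the block without each pair were added after the data were seen. Depth limits Scd1 most; intervals cover counting error only, since PCR copies were not told apart.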

Additional observations from a re-analysis of the deposited data

Results flagged for a closer look

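Of 87 groups of 5 libraries (29 genes in 3 groups), 10 had 1 library apart from the others by Dixon's criterion; chance alone flags about 1 in 20 groups. In shNT, replicate 3 was apart for Scd2 at 946 CPM (the other 4 at 339 to 439) and for Hmgcs1 at 87.7 CPM (55.9 to 63.3); it is 1 of the 5 libraries with many reads outside genes. Replicate 4 of shNT was apart for Srebf1, at 74.1 CPM (101 to 109). In WT IL3, replicate 5 was apart for Pmvk at 56.5 CPM (47.6 to 49.6) and for Scd1 at 0.792 CPM (0.269 to 0.388), replicate 1 for Mvd at 63.3 CPM (39.6 to 45.4), and replicate 2 for Idi1 at 20.8 CPM (8.56 to 11.5). In WT deprived, replicate 2 was apart for Idi1 at 15.5 CPM (6.80 to 8.93), replicate 3 for Acat2 at 93.3 CPM (51.6 to 55.2), and replicate 1 for Fasn at 169 CPM (124 to 136). The Idi1 flag falls on the same replicate number in both wild-type conditions. Groups of 3 libraries were not tested, so shSTAT5B replicate 3 could not be flagged in this way.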

How the results depend on the processing

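With a replicate block in fits of only the compared groups, 10 of 28 genes were called for IL3 in wild type (22.4% of all genes), with 1 to 13 when a pair was left out. In each of the other 7 comparisons 0 were called. Of all genes, the block fits called 0.0995% for shLSD1 over shHDAC3, 0.0358% for shNT over WT IL3 and 0 in the rest of the 7. Not all pairs of same-numbered libraries deviated together in those 7, so the numbers were not taken to pair them. Without the block, fits of only the 2 wild-type groups called 3 (10.5% of all genes), and 1 was called (Hsd17b7) without the 6 libraries over 13%, without the 5 over 14% and in the common class only (7.4%, 7.17% and 4.73% of all genes). For shSTAT5B over shNT, DESeq2 and the term for library class called 2 each (1.13% and 5.34% of all genes), and the common class only called 13, there with 1 shSTAT5B library (replicate 3) whose spread is assumed to be that of the other groups. In that fit Fasn reversed to a log2 fold change of 1.05 (adjusted p = 0.00659). The same fit called 12 for shSTAT5A over shSTAT5B, with a median of -0.87 and Fdps reversed to -1.48 (adjusted p = 0.00304). That fit also leaves out shNT replicates 1 and 3 and shSTAT5A replicate 3. Which of these libraries turned the sign was not tested beyond leaving out 1 at a time: Fasn was at 0.12 to 0.17 without shSTAT5B replicate 1 or 2 or shNT replicate 1, and Fdps at -0.79 without shSTAT5A replicate 3 and -0.29 without shSTAT5B replicate 1, none of them called.

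Leaving out 1 library at a time gave 0 called for IL3 in wild type (1 to 13 in the block fits, which leave out a pair), 0 to 1 for shSTAT5B over shNT and for shLSD1 over shHDAC3, and 0 in the other 5. The share of all genes called was not worked out for the fits with 1 library left out, so these counts have no background beside them. Median log2 fold changes then ranged from -0.12 to 0.028 for IL3, -0.25 to 0.011 for shSTAT5A, -0.27 to 0.41 for shSTAT5B, -0.12 to 0.053 for shLSD1, 0.037 to 0.20 for shHDAC3, 0.12 to 0.23 for shNT over WT IL3, -0.35 to 0.19 for shSTAT5A over shSTAT5B, and -0.23 to 0.062 for shLSD1 over shHDAC3. Of the values of single genes under an alternative, 4001 kept direction and side of the threshold or were uncalled throughout, 76 passed it newly and 2 reversed. A change of sign in an uncalled value is counted among the 4001, as for Acly with IL3 in wild type, in 15 of 24 alternatives. Median shifts with RLE factors, no filter or DESeq2 changed no count other than that named. Scd1 is limited by depth, with 1 to 4 reads in each STAT5 knockdown library.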
